A study of Mus musculus with 9 samples.

Results

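Regnase and AU-rich element binding proteins are RNA-binding proteins that control how long inflammatory mRNAs last, and the mRNAs that encode 8 of them were followed here through an immunoprecipitation (IP) of the decay factor Roquin. The genes were chosen by symbol: Zc3h12a, Zc3h12c, Zfp36, Zfp36l1, Zfp36l2, Elavl1, Hnrnpd and Khsrp. All 8 were found among the 20467 genes listed by symbol, and all 8 passed the filter on low counts that left 9567 genes for testing. RNA came from RAW264.7 cells, a mouse macrophage line, and every culture had received lipopolysaccharide (LPS) at 100 ng/ml for 2 h, so that no group shows the state before LPS. Roquin IP (n = 3) used rabbit polyclonal antibodies on protein A/G beads, control IP (n = 3) used the same kind of beads with no antibody, and input (n = 3) was lysate RNA taken ahead of the IP. A control IP without antibody does not show what an unrelated antibody would hold, and all values describe mRNAs, not the proteins they encode.

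Regnase-1, the product of Zc3h12a, is an endonuclease that cleaves mRNAs of cytokines and of regulators of NF-kappaB, and Zc3h12c encodes its relative Regnase-3. Both Regnase-1 and Roquin recognise stem-loops in 3' untranslated regions (3' UTRs) with a small pyrimidine-purine-pyrimidine loop. Tristetraprolin (Zfp36) and its relatives (Zfp36l1, Zfp36l2) bind AU-rich elements and recruit deadenylases, KSRP (Khsrp) and AUF1 (Hnrnpd) also bind such elements and promote decay in many settings, and HuR (Elavl1) binds them and usually stabilises the mRNA. Zfp36 and Zc3h12a are themselves induced by LPS in macrophages and damp the response.

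Libraries held 1799390 to 12975767 reads over the listed genes, and levels below are CPM, counts per 1000000 reads of a library size scaled by trimmed mean of M-values (TMM) factors. The 8 mRNAs together took 0.102% to 0.183% of the reads of a library. The lowest count of any of them in a library was 41, for Zfp36l2 in Input 1, with an exact 95% Poisson interval of 29.4 to 55.6 that covers counting error only. Of 12 macrophage markers with an entry, 10 had reads in every library. Their summed level was 1351 to 2272 CPM with the Roquin antibodies, 1083 to 1727 CPM on beads alone and 1354 to 2115 CPM in lysate. Of 7 lymphocyte markers 6, Cd3e and Cd4 among them, had no read in any library. Tnf alone took 17.6% to 27.2% of the reads in Roquin IP and at most 0.516% in any other library. Lars2 differed in the opposite direction, with at most 23.9% of the reads in Roquin IP and 28.6% to 41.5% in the other libraries. The TMM factors were 0.611 to 0.803 in Roquin IP and 1.12 to 1.38 elsewhere. The part of either gene in these factors was not tested.

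The first comparison asked which of these mRNAs the Roquin antibodies recovered beyond the beads. At TMM-scaled levels both Regnase mRNAs were higher with the Roquin antibodies than on beads alone, with folds of 2.00 (Zc3h12a) and 2.22 (Zc3h12c). For both, every Roquin IP library lay above every control IP library at these levels. The other 6 mRNAs had folds of 0.835 to 1.00, and their groups overlapped. In CPM of all reads, without TMM factors, the groups overlapped for both Regnase mRNAs too. Zc3h12a was then at 192, 90.5 and 155 in Roquin IP and at 121, 143 and 121 in control IP. Zc3h12c was at 793, 408 and 645 in Roquin IP and at 676, 379 and 386 in control IP. The differences of the Regnase mRNAs did not pass the threshold (adjusted p under 0.05) in the fit by group, and passed in the fit that compares libraries of the same replicate number. Against the input Zc3h12a rose and passed in both fits. These comparisons do not separate direct binding by Roquin from recovery through another protein.

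Zc3h12a (chr4:125118423-125127840, minus strand of GRCm38, as for the other 7 genes) was at 286, 148 and 193 CPM in Roquin IP 1, 2 and 3. Beads alone held 108, 117 and 88.2 CPM in the same order, and lysate 111, 69.9 and 86.1 CPM. The lowest Roquin IP library thus stood above all 6 others, and control IP and input overlapped. On the log2 scale the change over beads alone was 1.00 (SE 0.30, 95% interval 0.35 to 1.65), with an edgeR adjusted p of 0.114. Over the input it was 1.22 (SE 0.31, 95% interval 0.57 to 1.88), with an edgeR adjusted p of 0.0245. With the replicate number as a block, the edgeR adjusted p was 0.0235 over control IP and 0.00318 over the input.

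Zc3h12c (chr9:52111344-52168572) was at 1177, 668 and 803 CPM in Roquin IP. Control IP held 602, 310 and 280 CPM, and the input 585, 377 and 436 CPM. Replicate 1 was the highest library of each of the 3 groups, and the gap between Roquin IP 2 and control IP 1 was small. The log2 fold change was 1.15 over control IP (SE 0.35, 95% interval 0.41 to 1.90, edgeR adjusted p = 0.114) and 0.92 over the input (SE 0.35, 95% interval 0.18 to 1.66, edgeR adjusted p = 0.125). In the fit with the replicate block it passed both times, with adjusted p of 0.00117 and 0.00584. On leaving out 1 library at a time in the fit by group, the change over control IP ran from 0.89 (without Roquin IP 1, edgeR adjusted p = 0.538) to 1.58 (without control IP 1, edgeR adjusted p = 0.0133), and it passed in that last of the 6 cases alone. For Zc3h12a it ran from 0.711 to 1.196 and passed in 0 of 6 (edgeR adjusted p 0.0692 to 0.618).

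Of the 8 mRNAs edgeR called 0 higher over control IP, where 3.76% of the 9567 genes were called higher, and 0 lower, where 0.0% were. The unadjusted p was under 0.05 for 2 of the 8, both Regnase mRNAs, against 7.93% of all genes in that direction, and for 0 in the lower direction, against 2.13%. DESeq2 and the fit with the block each called these 2 higher, where they called 4.43% and 5.52% of genes higher, and called 0 of the 8 lower, where they called 0.0469% and 0.115%. The 2 mRNAs with all 3 Roquin IP libraries above the beads compare with 10.7% of genes, and the 0 with all 3 below compare with 8.0%. By fold change over control IP, Zc3h12c stood at position 532 and Zc3h12a at position 666 of 9567. The median log2 fold change of the 8 was -0.09, beside -0.12 over all genes.

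Over the input 1 of the 8, Zc3h12a, was called higher, against 5.45% of genes, and 0 lower, against 2.79%. The unadjusted p was under 0.05 for 2 higher and 0 lower, against 12.1% and 10.7%. DESeq2 called 1 higher and 0 lower, where it called 8.03% and 5.94% of genes, and the block called both Regnase mRNAs higher and 0 lower, where it called 9.99% and 8.04%. All 3 Roquin IP libraries lay above the input for 2 of the 8 and below it for 0, against 16.5% and 14.4% of genes. The median of the 8 was 0.02 on the log2 scale, beside -0.01 over all genes.

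**Figure D1:**
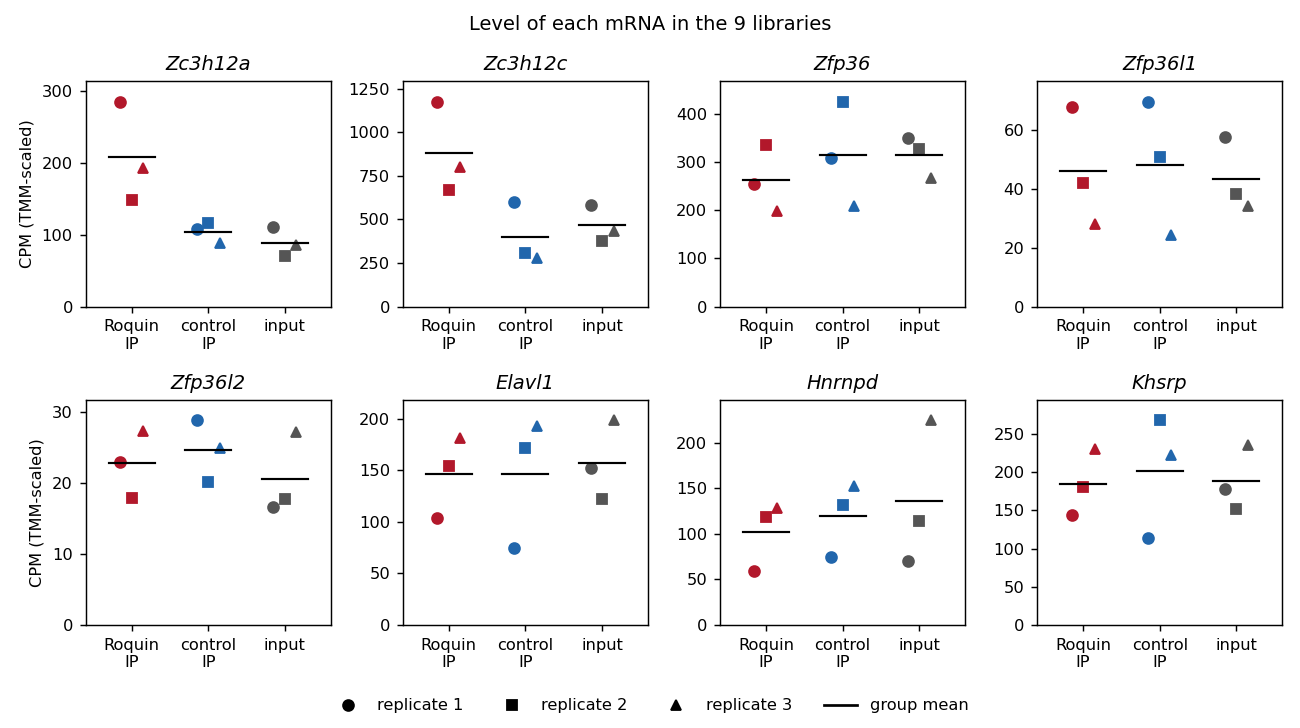
Level of each mRNA (CPM, TMM-scaled, linear axis from 0) in the 3 libraries of Roquin IP, control IP and input; symbols give the replicate number and bars the group mean. Both Regnase mRNAs have all 3 Roquin IP points above the other groups, and the other 6 overlap.

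The call of Zc3h12a over the input rested on several libraries. It ended without Roquin IP 1 (log2 fold change 0.94, edgeR adjusted p = 0.138), Roquin IP 3 (1.28, 0.0594), Input 2 (1.08, 0.103) or Input 3 (1.22, 0.0715). It also ended with library size alone (0.48, adjusted p = 0.269), a scaling that moved the median of all genes in this comparison to -0.76. Over control IP that scaling gave 0.18 for Zc3h12a and 0.36 for Zc3h12c on the log2 scale, where the median of all genes was -0.96. In the authors' deposited table the IP ratio, Roquin antibodies over beads, was 2.03 for Zc3h12a and 2.24 for Zc3h12c, with p-values of 0.860 and 0.256, while the ratios of the other 6 were from 0.85 to 1.02 with p-values of 1.0.

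**Figure D2:**
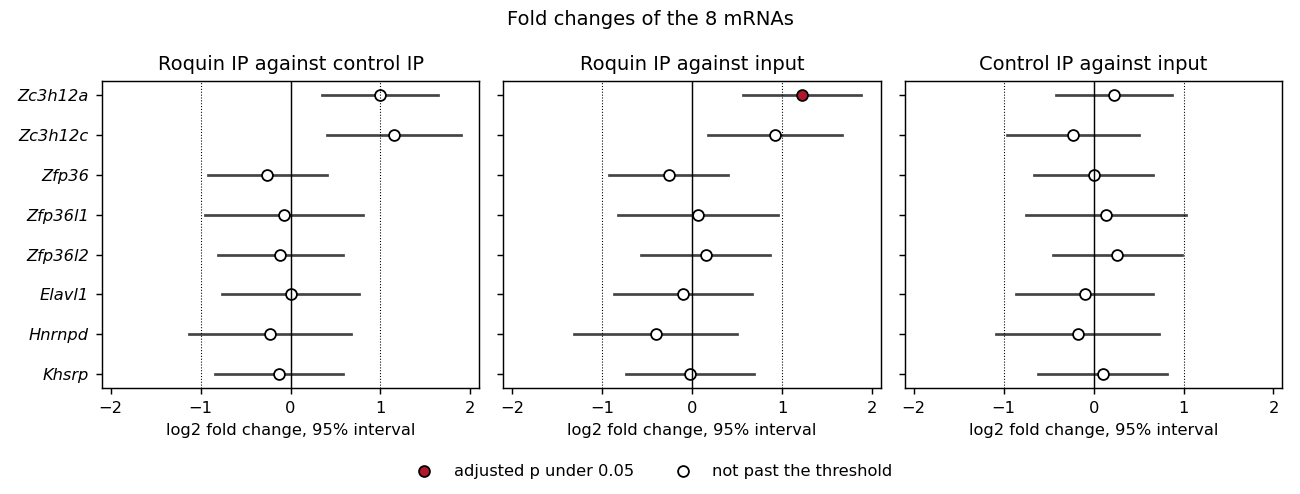
Log2 fold change of each mRNA (points) with its 95% interval (lines) in the 3 comparisons; filled points passed at an edgeR adjusted p under 0.05 and dotted lines mark 2-fold. Only Zc3h12a over the input is filled, and the intervals of both Regnase mRNAs lie above 0 in both Roquin IP panels.

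Ratios of reads within a library need no scaling between libraries. Zc3h12a reads divided by the summed reads of the 6 other mRNAs (the Zfp36 family, Elavl1, Hnrnpd and Khsrp) gave 0.438, 0.175 and 0.242 in Roquin IP 1, 2 and 3. The same ratio was 0.161, 0.109 and 0.107 on beads alone, and lysate gave 0.135, 0.0907 and 0.0873. All Roquin IP libraries were again above all others. For Zc3h12c the ratio was 1.81, 0.788 and 1.01 in Roquin IP, 0.898, 0.290 and 0.339 on beads alone, and 0.710, 0.489 and 0.442 in lysate. Here Roquin IP 2 lay below control IP 1, and the groups overlapped. Within each replicate number the Zc3h12c ratio was higher in Roquin IP than on beads alone, by 2.01-fold, 2.71-fold and 2.98-fold. For Zc3h12a the corresponding changes were 2.72-fold, 1.60-fold and 2.27-fold. The difference in fold change between the Regnase mRNAs and the other 6 was not tested beyond these ratios.

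**Figure D3:**
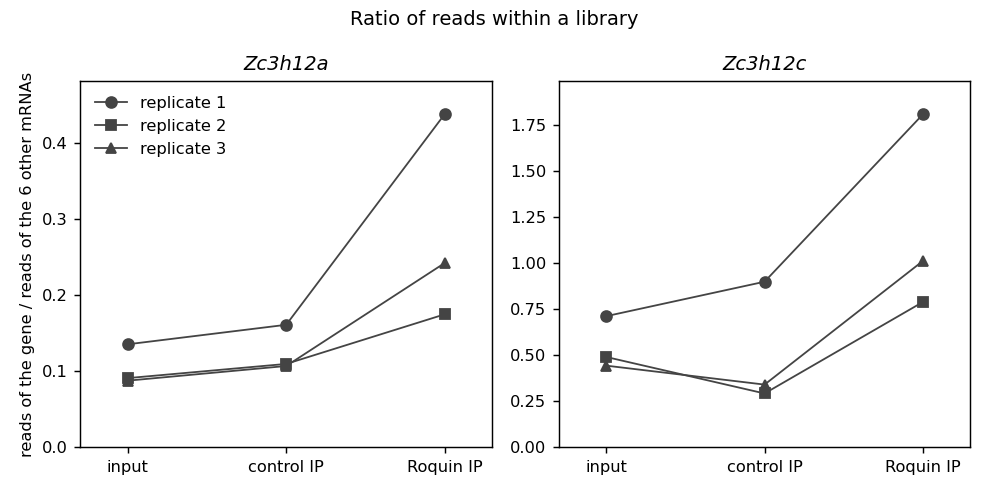
Reads of Zc3h12a (left) and Zc3h12c (right) divided by the reads of the 6 other mRNAs in the same library (linear axes from 0); lines join libraries that share a replicate number. Every line rises from control IP to Roquin IP, and replicate 1 is the highest in each group.

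The balance of the 2 Regnase mRNAs varied most on beads alone. Zc3h12a reads per Zc3h12c read were 0.243, 0.222 and 0.240 in Roquin IP and 0.190, 0.186 and 0.198 in lysate. In control IP the ratio was 0.179, 0.377 and 0.315, a wider spread than in either other group. Control IP against the input gave Zc3h12a 0.23 (edgeR adjusted p = 0.726) and Zc3h12c -0.23 (edgeR adjusted p = 0.761) on the log2 scale. Neither passed, and the intervals reached from -0.42 to 0.87 and from -0.97 to 0.51.

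The authors' deposited table also sorts genes by predicted decay element, the kind of constitutive stem-loop through which Roquin acts. All 8 mRNAs were in the class without one, as were 99.1% of the genes listed. The stem-loops in the annotated 3' UTRs are shown because Regnase-1 and Roquin recognise similar loops. In the GENCODE M21 annotation (GRCm38), whose build may differ from the one used for the counts, the longest 3' UTR was 856 bases for Zc3h12a and 4062 bases for Zc3h12c. The core TTCNNNGAA with a pyrimidine-purine-pyrimidine loop, searched on the mRNA strand, was absent from both, and 6.01% of 9449 tested genes with a 3' UTR held it. A wider pattern, chosen after these values were seen, asked for the same 3-base loop closed by at least 6 Watson-Crick pairs of any sequence. It occurred 3 times in Zc3h12a and 1 time in Zc3h12c, with 0 matches in each of the other 6. Of all 9449 genes 10.5% held it, and among genes with a 3' UTR within 1.5 times the length the share was 6.78% for Zc3h12a and 22.0% for Zc3h12c. For the other 6 the like share ran from 6.26% (Zfp36) to 26.4% (Hnrnpd), so most genes of their lengths had no match either. The loops are in capitals below, all on the minus strand, with the decay element of Tnf for comparison.
Zc3h12a at chr4:125119069-125119083: gatacaCATtgtatc
Zc3h12a at chr4:125118887-125118901: aggcacCATgtgcct
Zc3h12a at chr4:125118662-125118678: atttaaaTATtttaaat
Zc3h12c at chr9:52113469-52113483: ctgaacCATgttcag
Tnf at chr17:35199585-35199599: gttttcTGTgaaaac

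The Tnf stem shown ends in TTC before the loop and GAA after it, which is the core searched above, whereas the stems of the Regnase genes close on other letters. Another Tnf match to the wider pattern, at chr17:35199430-35199444 with the loop CAC, closes on other letters too. Of the 4 Regnase loops 3 read CAT and the other reads TAT. A match to letters is a description of the annotated sequence and not evidence of a fold or of binding. Over all tested genes, 2.68% of the 8459 without the wider pattern were called higher in Roquin IP against beads alone, a pattern described here with no test. The share was 11.8% of the 884 genes with 1 match and 26.4% of the 106 genes with 2 or more. The median log2 fold change in these 3 sets was -0.14, 0.14 and 0.75. Their median 3' UTR lengths were 1091, 2292 and 3581 bases, so the number of matches moved with length, whose part in the shares was not tested. Of the 951 genes with a match and no decay element in the authors' deposited table, 11.8% were called higher. The core TTCNNNGAA with its loop, which both Regnase mRNAs lack, gave a like share. Among the 568 genes that held it 10.9% were called higher, and their median 3' UTR length was 2657.5 bases.

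**Figure D4:**
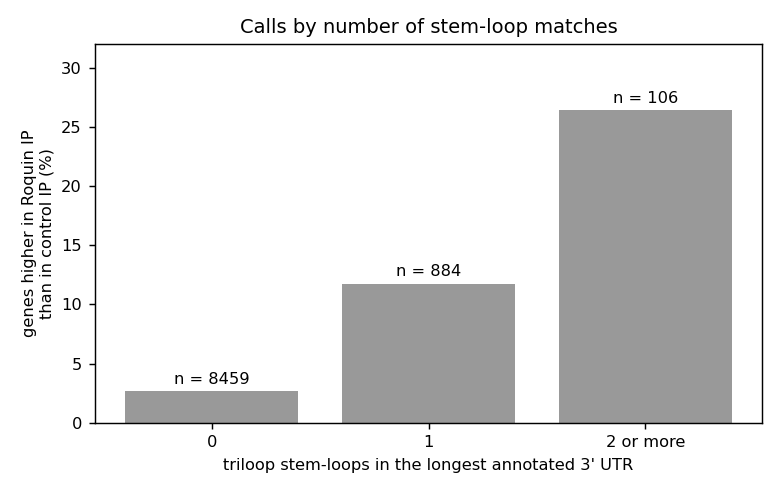
Share of tested genes called higher in Roquin IP against control IP (percent, bars from 0) by the number of stem-loops with a pyrimidine-purine-pyrimidine loop and at least 6 pairs in the longest annotated 3' UTR. The bars stand at 2.68%, 11.8% and 26.4%, for 8459, 884 and 106 genes.

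No such difference was detected in the Zfp36 family. Zfp36 itself (chr7:28376784-28380253) was at 254, 335 and 199 CPM in Roquin IP. Control IP held 309, 425 and 209 CPM. The input held 349, 328 and 266 CPM, inside the range of control IP. The log2 fold change was -0.26 over beads alone (SE 0.31, edgeR adjusted p = 0.824), which is a fold of 0.835 with a 95% interval of 0.528 to 1.32. Over the input it was -0.26 as well (SE 0.31, edgeR adjusted p = 0.667). With library size alone Zfp36 was called lower in both comparisons (-1.11 and -1.05, adjusted p = 0.0207 and 0.0209), where the medians of all genes were -0.96 and -0.76.

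Zfp36l1 (chr12:80107754-80113013) was at 67.8, 42.0 and 28.1 CPM in Roquin IP. Control IP held 69.6, 50.7 and 24.4 CPM and the input 57.7, 38.3 and 34.2 CPM. In each group replicate 1 was the highest and replicate 3 the lowest, and the spread inside each group was wider than the differences between group means. The fold over control IP was 0.950 (95% interval 0.517 to 1.75, edgeR adjusted p = 0.965). Zfp36l2 (chr17:84183931-84187947) was at 23.0, 17.9 and 27.3 CPM in Roquin IP, 28.9, 20.2 and 24.97 CPM on beads alone, and 16.7, 17.8 and 27.2 CPM in lysate. Its fold over control IP was 0.925 (95% interval 0.570 to 1.50, edgeR adjusted p = 0.935). For all 3 family members an increase of 2-fold over control IP lay outside the 95% interval.

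Each of the 3 family mRNAs held 1 match to the AU-rich nonamer TTATTTATT in its longest annotated 3' UTR, searched on the mRNA strand. The nonamer occurred in 8.54% of the 9449 genes, and in 5.81% to 9.79% of genes with a 3' UTR of like length to those of the family. The sites are shown as the kind of element that the encoded proteins bind; capitals mark the nonamer, to which the coordinates refer, on the minus strand of GRCm38. Neither Regnase mRNA held the nonamer, while the shorter ATTTA, which lies inside it, occurred 3 times in Zc3h12a and 14 times in Zc3h12c. ATTTA occurred in 71.4% of the 9449 genes. Among genes with a 3' UTR of like length, 24.2% held at least as many matches as Zc3h12a and 9.27% at least as many as Zc3h12c.
Zfp36 at chr7:28376961-28376969: gacgactTTATTTATTgtattaa
Zfp36l1 at chr12:80108177-80108185: tgttggaTTATTTATTttagaaa
Zfp36l2 at chr17:84184924-84184932: atttaacTTATTTATTatcttgt
Elavl1 at chr8:4285790-4285798: tatttatTTATTTATTtattttt

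The Elavl1 site is 1 of 8 overlapping or neighbouring nonamers in its 3' UTR of 4218 bases, where ATTTA occurred 17 times. Of genes with a 3' UTR of like length 4.29% held as many ATTTA matches. Elavl1 was also the only one of the 8 with the core TTCNNNGAA and its loop, at chr8:4287155-4287163, and no further base pair extended that stem. This core occurred in 14.4% of genes with a 3' UTR of like length. The site is shown with the core in capitals, for comparison with the Tnf element.
Elavl1 core: gttttcaTTCTATGAAaggacta

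No recovery of Elavl1 above beads alone was detected. The gene (chr8:4285382-4325413) was at 104, 154 and 181 CPM in Roquin IP, at 74.8, 172 and 193 CPM on beads alone, and at 152, 122 and 199 CPM in lysate. The group means of the IPs were 146.5 ± 39.3 and 146.5 ± 63.0 CPM (SD, n = 3 each). The fold over control IP was 1.00 (95% interval 0.590 to 1.69, edgeR adjusted p = 1.0), and over the input the log2 fold change was -0.10 (edgeR adjusted p = 0.904).

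Hnrnpd (chr5:99955935-99978938) was at 59.5, 118 and 128 CPM in Roquin IP, 74.8, 132 and 153 CPM on beads alone, and 69.9, 114 and 225 CPM in lysate. Replicate 1 was the lowest library of each group, the opposite of Zfp36l1 and Zc3h12c. Its fold over control IP was 0.854 (95% interval 0.457 to 1.59, edgeR adjusted p = 0.903), and over the input 0.754 (95% interval 0.403 to 1.41, edgeR adjusted p = 0.616). Khsrp (chr17:57021051-57031522) was at 144, 181 and 231 CPM in Roquin IP, 114, 268 and 223 CPM on beads alone, and 178, 152 and 236 CPM in lysate. Its fold was 0.918 over control IP (95% interval 0.561 to 1.50, edgeR adjusted p = 0.929) and 0.984 over the input (edgeR adjusted p = 0.978). Khsrp held a single ATTTA in its 3' UTR, and 86.9% of genes with a 3' UTR of like length had as many.

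**Figure D5:**
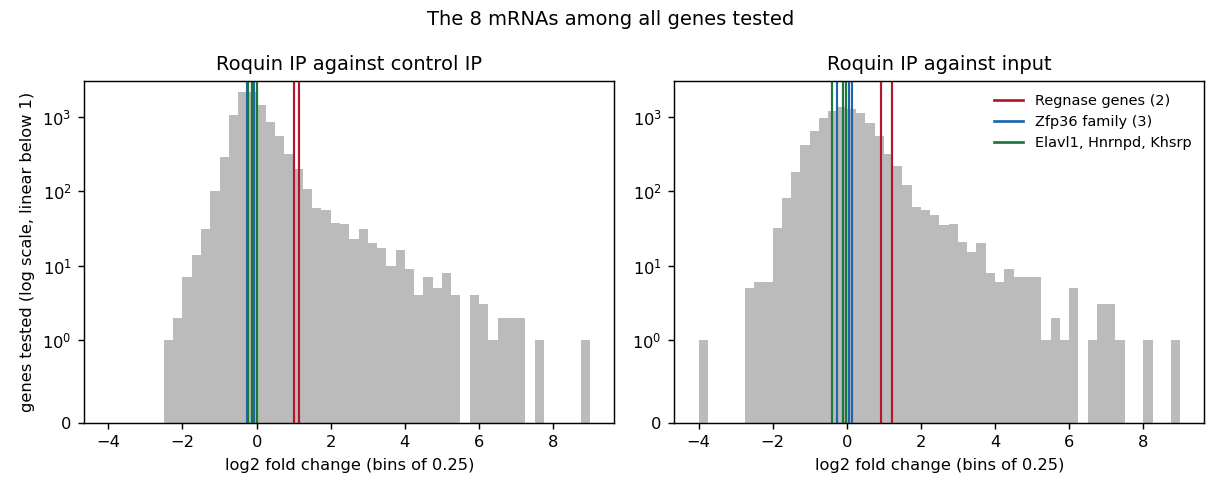
Number of tested genes by log2 fold change in bins of 0.25 (bars, log count axis that is linear below 1) over control IP (left) and over the input (right), with vertical lines at the 8 mRNAs. The Regnase lines stand at 1.00 and 1.15 on the left and at 1.22 and 0.92 on the right, while the other 6 lie near the centre of the distribution.

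No difference of the 8 mRNAs between beads alone and lysate was detected. In control IP against the input edgeR called 0 of 8 higher and 0 lower, where 0.815% and 0.303% of genes were called. The unadjusted p was under 0.05 for 0 of the 8, against 10.8% of genes higher and 9.53% lower. DESeq2 called 0 of the 8, where it called 4.23% higher and 4.12% lower, and the block called 0, where it called 6.65% and 5.78%. The groups of all 8 overlapped, while 12.2% of genes lay wholly above and 10.8% wholly below. The log2 fold changes ran from -0.23 for Zc3h12c to 0.27 for Zfp36l2, with a median of 0.05 beside 0.02 over all genes.

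Levels per kilobase of the longest coding transcript put the 8 mRNAs in order within the lysate. Zfp36 was highest at 113 ± 15.4 CPM per kb (SD, n = 3, as for the levels that follow), and its input libraries did not overlap those of the next gene. Zc3h12c followed at 68.9 ± 15.9, Khsrp at 47.4 ± 10.8, Zc3h12a at 32.4 ± 7.59, Elavl1 at 27.4 ± 6.75, Hnrnpd at 20.0 ± 11.7 and Zfp36l1 at 14.5 ± 4.21 CPM per kb, and each of these overlapped its neighbour. Zfp36l2 was the lowest at 5.82 ± 1.65 CPM per kb and stood clear of Zfp36l1. Among 8754 tested genes with a length, Zfp36 was at percentile 96.5 and Zfp36l2 at percentile 40.3. In Roquin IP the order changed at the top: Zc3h12c was at 131 ± 39.0 CPM per kb, Zfp36 at 94.1 ± 24.5 and Zc3h12a at 75.8 ± 25.4, and these 3 overlapped in that order.

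The genes with the most similar profiles were found by the root mean square distance of centred log2 CPM over the 9 libraries, which share depth and replicate number. Nearest to Zc3h12a were Opa3 (0.12) and Runx1 (0.16), against a median distance of 0.82 to all genes. Opa3 encodes a mitochondrial protein and Runx1 a transcription factor of blood cells, and their log2 fold changes over control IP were 1.05 and 1.13. Nearest to Zc3h12c were C030046E11Rik (0.19) and Cd247 (0.21), the latter encoding a signalling chain of immune receptors. For the family of tristetraprolin they were Tnfaip2 and Sqstm1 (Zfp36), Gas7 and Vps39 (Zfp36l1), and Ppp4r1 (Zfp36l2), at distances of 0.10 to 0.16. For the others they were Bud13 and Wdr55 (Elavl1), Eif4a3 and Set (Hnrnpd), and Rnf126 and Vps37c (Khsrp), at 0.11 to 0.18.

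Genes around these proteins were taken from 4 lists. For all 4, edgeR called 3.76% of all genes higher and 0.0% lower over control IP. Over the input it called 5.45% and 2.79%, and in control IP against the input 0.815% and 0.303%. Shares for the other fits are given above. Of 8 tested relatives and regulators of Regnase edgeR called 0 over control IP, with a median log2 fold change of -0.19 beside -0.12 over all genes; 0 had an unadjusted p under 0.05 and DESeq2 called 0. Of the 11 listed genes 3 did not pass the count filter, the relatives Zc3h12b and Zc3h12d among them. Over the input edgeR called 1 of the 8 lower, while DESeq2 and the block each called 2. The edgeR call was Malt1, the gene of a protease that cleaves Regnase-1. Malt1 fell by 1.17 on the log2 scale (SE 0.28, edgeR adjusted p = 0.0216), from 221 ± 28.2 to 98.1 ± 26.0 CPM. Its call ended without Roquin IP 1 (-0.97, adjusted p = 0.118), Roquin IP 3 (0.0706) or Input 2 (0.0789), and over control IP it was at -0.37 (adjusted p = 0.730). Control IP against the input gave Malt1 -0.79 (adjusted p = 0.137), and 0 of the 8 passed there (edgeR; 2 lower at an unadjusted p under 0.05, 0 by DESeq2, 1 by the block).

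Of 29 other tested binders of AU-rich or U-rich elements edgeR called 0 over control IP, with 1 at an unadjusted p under 0.05 and 0 by DESeq2, and with a median of -0.15. Over the input 2 were higher and 5 lower, with a median of -0.42 beside -0.01 over all genes. Ncl, which encodes nucleolin, was lowest at -1.51 (SE 0.29, edgeR adjusted p = 0.00527), and its level was 868 ± 144 CPM in Roquin IP, 1041 ± 232 CPM on beads alone and 2470 ± 413 CPM in lysate (SD, n = 3 each). Hnrnpa0 (1.39, adjusted p = 0.0140) and Hnrnpa1 (1.17, adjusted p = 0.0255), genes of nuclear ribonucleoproteins, were higher. Hnrnpa2b1 (-1.14), Hnrnpu (-1.12), Ybx1 (-1.12) and Zfr (-1.0), named after their values were seen, were the other 4 lower genes. Apart from that of Ncl, each of these 7 calls ended on leaving out some single library: any of the 6 for Hnrnpa2b1 and Hnrnpu, any but Input 1 for Ybx1 and Zfr, Roquin IP 1, Roquin IP 2, Input 1 or Input 3 for Hnrnpa1, and Roquin IP 3, Input 1 or Input 2 for Hnrnpa0. Highest adjusted p-values without 1 library or with library size alone were 0.187 for Hnrnpa2b1, 0.180 for Hnrnpu, 0.178 for Ybx1, 0.124 for Zfr, 0.343 for Hnrnpa1 and 0.160 for Hnrnpa0. The block called 2 higher and 9 lower. Values on beads alone lay on the same side, though not past the threshold: control IP against the input gave Ncl -1.25 (adjusted p = 0.0511) and Hnrnpa0 1.28 (adjusted p = 0.0562), and 0 of the 29 passed (edgeR; 1 higher and 8 lower at an unadjusted p under 0.05, 1 and 5 by DESeq2, 1 and 9 by the block). Reads of Hnrnpa1 and Ybx1 may be shared with processed copies elsewhere in the genome, so their values are uncertain.

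Of 15 tested kinases, phosphatases and partners that act on tristetraprolin 1 was higher over control IP and 0 were lower, with a median of -0.22. It was Cnot7, which encodes a deadenylase of the CCR4-NOT complex that tristetraprolin and Roquin both recruit. Cnot7 was at 244 ± 43.2 CPM in Roquin IP, 64.2 ± 2.12 CPM on beads alone and 86.4 ± 13.6 CPM in lysate (SD, n = 3 each). Its change on the log2 scale was 1.93 over control IP (SE 0.26, edgeR adjusted p = 0.000267), past the threshold in all 12 alternatives run, and 1.50 over the input (SE 0.26, edgeR adjusted p = 0.00251), where the call ended with library size alone (0.76, adjusted p = 0.0725). It was also the only one of the 15 higher over the input by edgeR, while the block called 6. The median of the 15 over the input was 0.54, beside -0.01 over all genes. In control IP against the input edgeR called 0 of the 15, with 5 higher at an unadjusted p under 0.05, 4 by DESeq2 and 6 by the block. The shares of all genes higher there were 10.8%, 4.23% and 6.65% in the same order. The median of the 15 was 0.33, beside 0.02 over all genes.

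Reported mRNA targets of Regnase-1 or tristetraprolin overlap with reported targets of Roquin, and the list was drawn up with results of these libraries known, so its direction is not independent evidence. Of 20 tested targets 7 were higher over control IP and 0 lower, with a median log2 fold change of 0.52. They were Nfkbid (8.87), Tnf (7.57), Nfkbiz (5.01), Ier3 (4.56), Icos (4.35), Rel (1.55) and Ptgs2 (1.25). The block called 8 higher and DESeq2 9. Icos was near the limit of detection on beads alone, at 0.784 ± 0.707 CPM (SD, n = 3) where 3 counts are worth 0.257 to 0.912 CPM, and its change was 5.02 without control IP 3. The call of Rel ended with library size alone (adjusted p = 0.0806), and that of Ptgs2 ended under the same scaling (0.314) and on leaving out Roquin IP 2 (0.222) or any 1 of the control IP libraries (0.0660 to 0.122). Over the input 5 were higher, the first 5 of those 7, and 1 was lower, Il1b at -1.50 (SE 0.38, edgeR adjusted p = 0.0254), named after its values were seen. The block called 10 higher and 1 lower there. The call of Il1b ended without Roquin IP 1, Input 2 or Input 3 (adjusted p up to 0.0947). Control IP against the input gave 0 of 20 (edgeR; 1 higher and 4 lower at an unadjusted p under 0.05 and by the block, 0 and 1 by DESeq2).

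Some reads of these genes could belong to neighbours, since no source used here says how strand was handled in counting. In the GENCODE annotation 7 of the 8 genes share exon bases with a gene on the other strand, from 63 bases in Khsrp to 1672 bases in Zfp36l1, and Zc3h12a shares none. Of these partners only Ccl25, which shares 204 bases with Elavl1, is listed in the table, with 47 reads over all 9 libraries.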

How the data were processed

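The authors deposited whole-number read counts per gene for the 9 libraries, per the file headers. The authors' deposited table also holds an IP ratio (its header says log2, its values are linear) and a p-value whose adjustment is not stated. The submitters' processing notes name CASAVA 1.8.2, BWA and DESeq 1.8.3; genome build, annotation and strand are not stated there. Entries without a symbol (7480) were left out.

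The main test was the quasi-likelihood test of edgeR 4.0.16 on these counts (TMM factors, filterByExpr with a minimum count of 10, Benjamini-Hochberg over 9567 genes, threshold 0.05) under R 4.3.3, with the 9 libraries together and group as the term. Profiles used log2 CPM with a prior count of 2. Libraries held 1799390 to 12975767 counts, and 1 CPM was worth 2.02 to 11.7 counts. The series text calls the replicates biological. The titles number the replicates in each group, but no label says that a number marks a shared culture or day. The main fit therefore had no replicate block, which was run as an alternative. Correlations of same-numbered deviations from group means were 0.15 to 0.58. Those of other numbers were below 0, which the centring on group means forces in part, so they are not separate evidence. No library repeated another (chi-square per degree of freedom 13.9 to 117 within groups). Alternatives were DESeq2 1.42.0, RLE factors, library size alone, no filter, the replicate block, a fit of the 6 libraries compared, and leaving out each library. The fit was tested on simulated counts.

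The 8 genes were named whatever their values. From the lists, up to 8 genes past the threshold over control IP and up to 3 in each other comparison were named, and for each of the 8 genes the 2 nearest profiles, of which 1 is not reported here. The 8 genes and the lists were chosen with earlier results of these data known. The longest 3' UTR of each gene came from GENCODE M21 (GRCm38), found for 98.8% of genes tested, and levels per kb used the longest coding transcript.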

Additional observations from a re-analysis of the deposited data

How the results depend on the processing

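Of 288 values of the 8 mRNAs under the alternatives (log2 fold changes), 233 kept direction and side of the threshold, 9 newly passed, 5 no longer passed and 41 changed sign, with 0 sign changes in Zc3h12a or Zc3h12c in Roquin IP against either group; the cause was not tested. Over control IP, genes called lower (0 in the fit by group) were 3694 with library size alone, 5 with DESeq2, 21 without the filter, 11 with the replicate block and 0 to 3 without 1 library; mRNAs of the 8 called higher (0) were 2, 1 and 2 with DESeq2, no filter and the block, and 0 to 1 without 1 library, and 1 was lower with library size alone. Over the input, genes higher (521) were 259 with library size alone, 956 with the block and 298 to 409 without 1 library; genes lower (267) were 2659, 522, 416 and 769 with library size alone, DESeq2, no filter and the block, and 30 to 192 without 1 library (30 without Roquin IP 1). Of the 8, those higher (1) were 0 with library size alone, 2 with the block and 0 to 1 without 1 library, and 1 was lower with library size alone. In control IP against the input, genes higher (78) were 383, 335, 636 and 2 with DESeq2, no filter, the block and the 6 libraries, and 0 to 188 without 1 library; genes lower (29) were 10, 373, 229, 553 and 1 with library size alone and those same 4, and 0 to 88 without 1 library. Elavl1 over control IP was 0.026, 0.025, 0.041 and 0.070 with RLE, DESeq2, the block and the 6 libraries. With library size alone Zfp36l1 and Zfp36l2 over the input were -0.71 and -0.56, and in control IP against the input Zfp36 was 0.060 (0.021 without the filter) and Elavl1 0.031. Without 1 library the log2 fold changes over control IP ran from -0.48 to 0.021 (Zfp36), -0.45 to 0.28 (Zfp36l1), -0.28 to 0.039 (Zfp36l2), -0.31 to 0.25 (Elavl1), -0.47 to 0.040 (Hnrnpd) and -0.41 to 0.14 (Khsrp). Over the input they ran from -0.31 to 0.33 (Zfp36l1), -0.0094 to 0.41 (Zfp36l2), -0.28 to 0.11 (Elavl1), -0.72 to 0.17 (Hnrnpd) and -0.21 to 0.18 (Khsrp). In control IP against the input they ran from -0.28 to 0.22 (Zfp36), -0.22 to 0.47 (Zfp36l1), -0.35 to 0.22 (Elavl1), -0.49 to 0.34 (Hnrnpd) and -0.16 to 0.39 (Khsrp). The replicate block changed the calls of Zc3h12a over control IP and of Zc3h12c over both groups, and no other call of the 8. A group left with 2 libraries kept a spread estimated over the fit. Depth limits Zfp36l2 most, with 41 to 291 counts a library.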
